A study of Mus musculus with 12 samples.

Results

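The genes described here are 10 neuropeptide precursors of the mouse cortex: Sst, Cort, Npy, Vip, Cck, Penk, Pdyn, Tac1, Crh and Grp. They were taken by gene symbol from the 55357 genes counted in each of 12 RNA sequencing libraries, and all 10 had counts high enough to be tested in each of the 6 comparisons below. The libraries came from 6 mouse pups at postnatal day 5. Cortex with hippocampal formation had been freed of the ventral forebrain and cut into a rostral and a caudal piece, which gave 1 library each. The 3 control animals (T4, T8 and T70) are labelled EgfrF/+ in the protocol and WT in the genotype field. The 3 conditional knockout animals (cKO; T3, T6 and T80) are labelled Nestin-EgfrF/F, with both copies of the epidermal growth factor receptor gene floxed and a recombinase driven by the Nestin promoter, which is active in neural progenitors. The labels do not say whether the controls carry the recombinase, and if they do not, its presence and the loss of Egfr cannot be told apart. Read from Xist and Y-linked transcripts, 2 controls were female and 1 male, against 1 female and 2 males among the cKO animals.

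Neuropeptides are made as long precursor proteins that are cut by convertases, trimmed, often amidated, and stored in dense-core vesicles, from which they act on G protein-coupled receptors of nearby cells. In the cortex most of them mark classes of inhibitory interneurons. Sst and Cort mark interneurons born in the medial ganglionic eminence, Npy is made by several inhibitory classes, and Vip marks cells born in the caudal ganglionic eminence, while Cck is made by both inhibitory and pyramidal cells. Penk, Pdyn and Tac1 are also strongly expressed by projection neurons of the striatum, which lies directly beneath the cortex and outside the dissected tissue.

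Total counts ran from 43810458 to 87170315 per library. Levels are given as CPM, counts scaled to the size of the library. Egfr was at 39.1 to 48.9 CPM in the 6 control libraries and at 5.81 to 14.6 CPM in the 6 cKO libraries, with no overlap. All 6 markers of excitatory cortical neurons were present in each library, with a summed level of 1053 to 2262 CPM. Pvalb, which defines a further interneuron class, was near 0 with 0.13 CPM at most. Several cKO libraries stood apart. The rostral library of T6 had 97650 CPM on mitochondrially encoded genes, against 17730 to 39080 CPM in the other libraries, 26.5 CPM on 7 meningeal genes, against 119.5 to 794.2 CPM, and 895.5 CPM on 7 astrocyte genes, against 1774 to 2747 CPM. The rostral library of T3 had 393.9 CPM on 7 choroid plexus genes, against 1.36 to 11.3 CPM in the other rostral libraries. A region score was also computed over 2490 genes that differed between the control regions, without the neuropeptides, scaled so that control rostral tissue averages 0 and control caudal tissue 1. Among the cKO rostral libraries it was 0.86 for T3, 0.64 for T80 and -0.08 for T6, and among the cKO caudal libraries 0.56, 0.81 and 1.15 in that order. The libraries labelled rostral of T3 and T80 were therefore nearer to control caudal than to control rostral tissue, and in T3 the library labelled rostral scored above the one labelled caudal. Whether these pieces were cut at another level, or the region labels of T3 were exchanged, was not tested. Rostral and caudal are used below as the labels give them.

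Sst, Cort, Npy and Vip are the neuropeptides for which all 3 control animals had the same direction between the regions and the 2 groups of libraries did not overlap, so the 120 bases before their start sites are shown here, as RefSeq gives them in build GRCm38.p6 (the counts use GRCm39). Capitals mark the cyclic AMP response element TGACGTCA, known from the somatostatin gene, or its core TGACG, searched on both strands. A full element holds 2 overlapping cores. The stretches lie at chr16:23890845-23890964 on the minus strand (Sst), chr4:149126764-149126883 on the minus strand (Cort), chr6:49822590-49822709 on the plus strand (Npy) and chr10:5639098-5639217 on the plus strand (Vip).
Sst: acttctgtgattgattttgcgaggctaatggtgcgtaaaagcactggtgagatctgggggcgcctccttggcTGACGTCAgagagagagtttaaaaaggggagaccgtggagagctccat
Cort: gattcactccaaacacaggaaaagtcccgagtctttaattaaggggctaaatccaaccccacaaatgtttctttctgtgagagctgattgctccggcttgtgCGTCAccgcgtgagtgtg
Npy: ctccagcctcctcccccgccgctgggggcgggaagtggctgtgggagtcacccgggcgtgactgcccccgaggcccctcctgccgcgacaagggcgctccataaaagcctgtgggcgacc
Vip: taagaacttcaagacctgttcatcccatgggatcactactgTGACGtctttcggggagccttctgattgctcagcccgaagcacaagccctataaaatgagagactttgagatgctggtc

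The full element of Sst begins 48 bases before the start site, the core of Vip 79 bases before it, and the core of Cort, on the other strand, 18 bases before it. Promoter entries were found for 7 of the 10 genes. Cck has 1 core beginning 47 bases before its start site and Tac1 has 2, at 43 and 197 bases. Within 250 bases, the letters of the core are not in the Npy window or in either Pdyn window. Among all 32851 promoters of the table, 1.55% hold the full element in a window of this length and 17.8% hold the core. Such a match is a description of the letters. The gene models counted lie, in GRCm39 as the files give them, at chr16:23708323-23709708 (Sst), chr4:149209491-149211220 (Cort), chr6:49799690-49806487 (Npy), chr10:5589218-5597617 (Vip) and chr2:129528485-129541764 (Pdyn), and each value counts reads over the gene as a whole.

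Levels of different genes were set side by side per kilobase of exonic length. In control rostral cortex Npy (54.7 ± 1.84 CPM per kb, SD, n = 3), Sst (51.9 ± 9.80) and Cck (41.96 ± 7.02) led, and the libraries of neighbours in that order overlapped. Grp followed at 9.99 ± 2.51 CPM per kb, below Cck in all 3 libraries, then Penk at 7.0 ± 6.76, Pdyn at 2.7 ± 0.96, Cort at 2.21 ± 0.31, Tac1 at 2.14 ± 1.36, Vip at 1.65 ± 0.096 and Crh at 1.26 ± 0.16. From Grp down to Vip each neighbour overlapped the next, and Vip and Crh did not overlap. In control caudal cortex Sst stood first at 84.04 ± 14.96 CPM per kb, above Npy (43.7 ± 2.23) without overlap, and Cort had moved from the seventh to the sixth place at 6.53 ± 0.80. Sst, Npy and Cck were the leading 3 and Crh the last in each of the 4 groups.

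**Figure D1:**
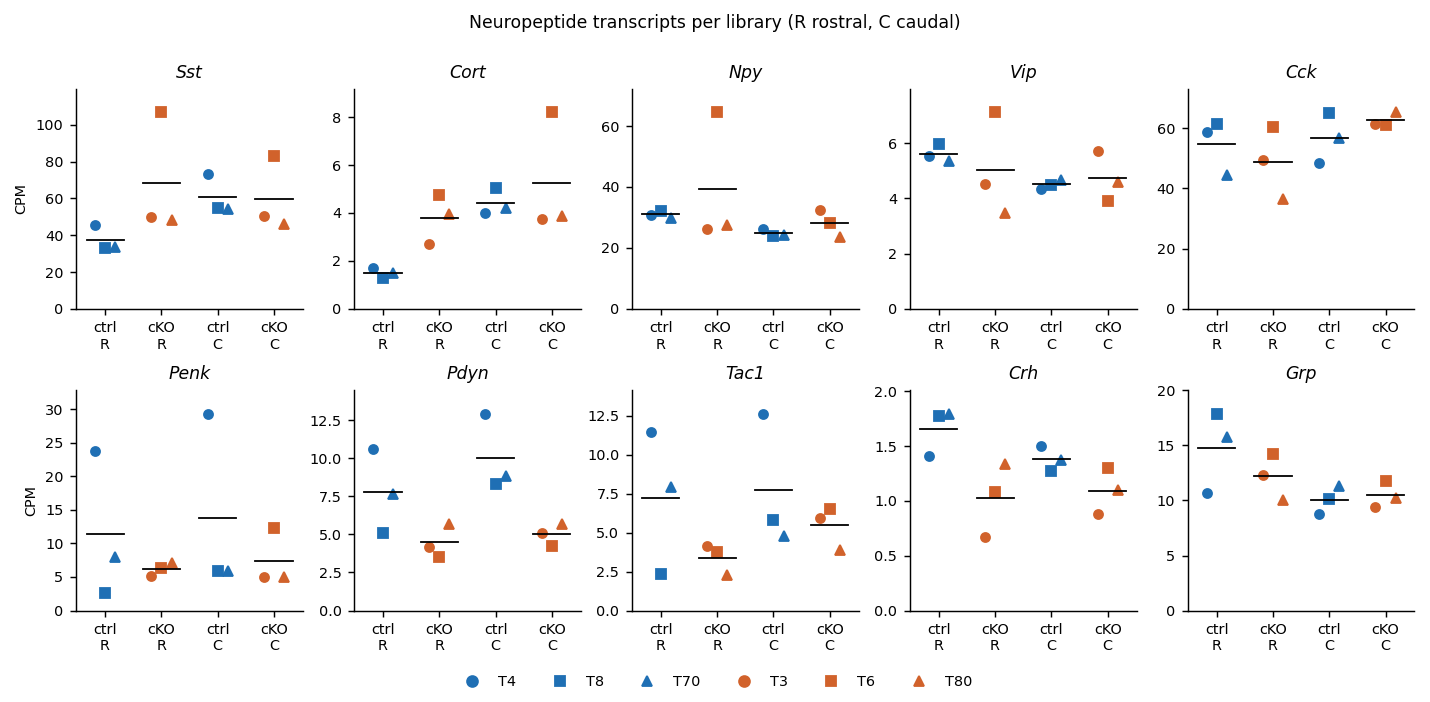
Level (CPM, linear axes from 0) of each neuropeptide in the 12 libraries, by genotype (blue control, orange cKO) and region (R rostral, C caudal). Each point is a library, its shape gives the animal, and the black line is the mean of 3. Cort is lowest in the 3 control rostral libraries, Sst and Npy are highest in the cKO rostral library of T6, and Penk is highest in both libraries of control T4.

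The first question was how the neuropeptides differ between the rostral and caudal regions of control tissue. Cort, whose precursor yields cortistatin, a peptide related to somatostatin, rose from rostral to caudal, and Npy, which encodes neuropeptide Y, fell. Both passed the test, against 12.2% of all 20461 genes tested. For 4 of the 10 (Cort, Sst, Npy and Vip) the regions did not overlap, against 31.4% of all genes. The neuropeptides had a median log2 difference of 0.08, against 0.00 over all genes, with 6 higher and 4 lower. In bulk tissue a different number of cells and a different amount of RNA per cell cannot be told apart.

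Cort was at 1.71, 1.28 and 1.49 CPM in the rostral libraries of control T4, T8 and T70 and at 4.0, 5.03 and 4.23 CPM in their caudal libraries. The lowest caudal library was above the highest rostral one. The log2 fold change, caudal over rostral, was 1.57 (SE 0.15, adjusted p = 0.000127 by the quasi-likelihood test of edgeR after Benjamini-Hochberg adjustment). It was called without any one of the animals, but not in 1 fit of all 4 groups (1.57, adjusted p = 0.0594).

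Npy was at 30.9, 32.1 and 29.98 CPM in rostral and at 26.2, 23.9 and 24.1 CPM in caudal libraries of T4, T8 and T70. The difference was small beside that of Cort, but the spread within each region was smaller still and the regions did not overlap. Npy had a log2 fold change of -0.32 (SE 0.059, edgeR adjusted p = 0.0057). The call was lost without T8 (-0.27, adjusted p = 0.127) and in the 1 fit of all groups (adjusted p = 0.795).

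Sst, which encodes somatostatin, was at 45.6, 33.3 and 33.4 CPM in rostral and at 73.05, 54.6 and 54.1 CPM in caudal libraries of the same animals. T4 was the highest animal in both regions, and the caudal library of each animal exceeded its own rostral one by nearly the same factor, a log2 difference of 0.68 to 0.71. Without the animal in the model the log2 fold change was 0.70 (SE 0.18, edgeR adjusted p = 0.0624) and did not pass. With the animal as a block it was called at the same size (0.70, SE 0.051, adjusted p = 2.27e-05).

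Vip, the vasoactive intestinal peptide gene, was at 5.53, 5.98 and 5.35 CPM in rostral and at 4.33, 4.50 and 4.68 CPM in caudal libraries. All 3 animals were lower caudally and the regions did not overlap. At -0.32 on the log2 scale (SE 0.099) the difference did not pass (edgeR adjusted p = 0.062). Grp, the gastrin-releasing peptide gene, was at 10.7, 17.9 and 15.7 CPM in rostral and at 8.73, 10.2 and 11.3 CPM in caudal libraries. Each animal was lower caudally, but T4 rostral lay within the caudal range. Its log2 fold change was -0.55 (SE 0.19, edgeR adjusted p = 0.124), and with the animal as a block it was called (-0.53, adjusted p = 0.00522).

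Pdyn, the prodynorphin gene, was at 10.6, 5.12 and 7.66 CPM in the control rostral libraries of T4, T8 and T70 and at 12.9, 8.31 and 8.83 CPM in their caudal libraries. It was higher caudally in all 3 animals, by log2 differences of 0.21 to 0.70. It did not pass without the block (0.37, SE 0.31, edgeR adjusted p = 0.537) and was called with it (0.39, SE 0.10, adjusted p = 0.031). The block brought the called neuropeptides to 5 of 10, against 15.4% of all genes with the block: Cort, Sst and Pdyn higher caudally, Npy and Grp lower. Cck was at 58.6, 61.4 and 44.3 CPM in rostral and at 48.4, 65.2 and 56.8 CPM in caudal control libraries, and its ranges overlapped widely. Cck (0.05, SE 0.16), Crh (-0.27, SE 0.16), Penk (0.29, SE 1.15) and Tac1 (0.11, SE 0.74) had both directions among the animals. For Penk and Tac1 the standard error was several times the difference.

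**Figure D2:**
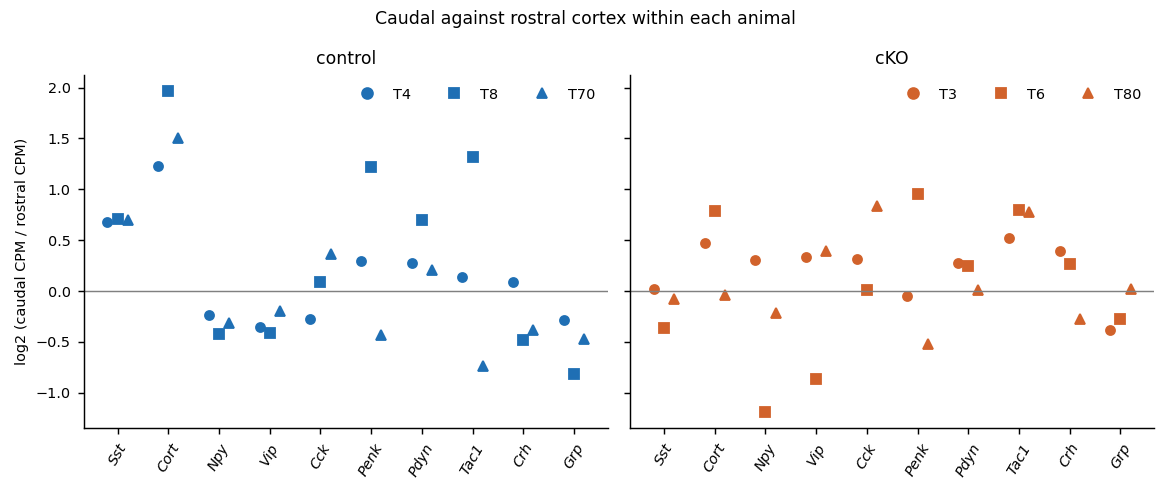
Log2 ratio of caudal to rostral CPM within each animal, for the 3 control animals (left) and the 3 cKO animals (right), with each animal as a point. Control Sst lies between 0.68 and 0.71 and control Cort between 1.23 and 1.97, while cKO Sst lies between -0.36 and 0.02 and cKO Cort between -0.04 and 0.79.

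In cKO tissue none of the 10 passed between the regions in edgeR, at an unadjusted p under 0.05 or in DESeq2. Of all genes, 0% of 20944 passed in edgeR, 1.66% had an unadjusted p under 0.05 and DESeq2 called 0.0051%. Only Cck, the cholecystokinin gene, had regions that did not overlap, against 5.65% of all genes. Cck was at 49.4, 60.5 and 36.5 CPM in the rostral and at 61.4, 61.2 and 65.3 CPM in the caudal libraries of T3, T6 and T80. Its log2 fold change was 0.36 (SE 0.19, edgeR adjusted p = 1.0), and the lowest caudal value lay just above the highest rostral one. Tac1, which encodes substance P and neurokinin A, was higher caudally in 3 of 3 cKO animals, with a log2 fold change of 0.68 (SE 0.30, edgeR adjusted p = 1.0). Pdyn was also higher in 3 of 3, by no more than 0.28 on the log2 scale.

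Sst was at 50.04, 106.9 and 48.5 CPM in the cKO rostral libraries of T3, T6 and T80 and at 50.7, 83.1 and 45.9 CPM in their caudal libraries. T3 and T80 had nearly equal levels in both regions, and T6 was high in both. Cort was at 2.7, 4.75 and 3.97 CPM in cKO rostral and at 3.74, 8.20 and 3.86 CPM in cKO caudal libraries. T80 had equal levels within 0.04 on the log2 scale, and T3 and T6 were higher caudally.

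The peptides that were lower caudally in control tissue had mixed directions in cKO. Npy was at 26.3, 64.6 and 27.4 CPM in the rostral libraries of T3, T6 and T80 and at 32.5, 28.2 and 23.7 CPM in the caudal ones, so that T3 was higher caudally and T6 and T80 lower. Vip was at 4.51, 7.12 and 3.48 CPM in rostral and at 5.70, 3.91 and 4.58 CPM in caudal libraries, with T6 alone lower caudally. Grp was at 12.3, 14.2 and 10.1 CPM in rostral and at 9.44, 11.8 and 10.2 CPM in caudal libraries, lower caudally in T3 and T6. Their log2 fold changes were -0.49 (SE 0.36), -0.10 (SE 0.30) and -0.22 (SE 0.18).

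Whether the region difference itself differed between genotypes was tested by the interaction. That fit had no term for the animal, so both libraries of an animal counted as independent. None of the 10 passed, against 0% of all 21599 genes, and 1 had an unadjusted p under 0.05, against 3.55% of all genes. That gene was Cort, whose caudal-over-rostral log2 difference was smaller in cKO by 1.09 (interaction -1.09, SE 0.43, edgeR adjusted p = 1.0). DESeq2 called none of the 10, against 0.0609% of all genes. With the animal as a block edgeR called none of the 10, against 0 of 21599 genes. Without T6 the interaction of Cort was -1.37 (SE 0.27, edgeR adjusted p = 0.0237). That fit, in which T3 and T80 are the cKO animals, called 2.17% of all genes. The interaction of Sst was -0.89 (SE 0.44, adjusted p = 1.0). T3 and T80, whose rostral libraries scored near caudal tissue, had log2 differences of Sst of 0.02 and -0.08 between the regions. T6, with scores of -0.08 and 1.15 near those of the control regions, had -0.36 for Sst and 0.79 for Cort. The control animals had 0.68 to 0.71 for Sst and 1.23 to 1.97 for Cort. The part of the region placement of the cKO pieces in these differences was not tested.

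The effect of genotype was asked first in rostral cortex. None of the 10 passed the edgeR test, as was true of 0% of all 20599 genes, and 3 (Cort, Sst and Pdyn) had an unadjusted p under 0.05, against 9.49% of all genes. DESeq2 called 1, Cort, against 1.67% of all genes. The cKO and control libraries did not overlap for 3 of the 10 (Cort and Sst higher in cKO, Crh lower), against 19.8% of all genes. The median log2 fold change was -0.21, against 0.04 over all genes, with 3 neuropeptides higher and 7 lower.

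The 3 cKO rostral libraries had 2.7 to 4.75 CPM of Cort, all above the control rostral range of 1.28 to 1.71 CPM and overlapping the control caudal range of 4.0 to 5.03 CPM. The log2 fold change was 1.36 (SE 0.26, edgeR adjusted p = 0.31), and it was called by DESeq2 (1.35, adjusted p = 0.000573) and by edgeR without T6 (1.17, adjusted p = 0.0278). Without T6 edgeR called 5.01% of all genes, and the cKO libraries left are those of T3 and T80, with region scores near control caudal tissue, where Cort is higher. Cort was at 4.75 CPM in T6, whose region score was like that of control rostral tissue. The part of region placement in the rostral Cort difference was not tested. The cKO rostral level of Sst, 48.5 to 106.9 CPM, exceeded the control rostral range of 33.3 to 45.6 CPM, with T6 far above the others. Its log2 fold change was 0.88 (SE 0.32, edgeR adjusted p = 0.487) and 0.41 (SE 0.14, adjusted p = 0.16) without T6. The rostral library of T6 was also the one with the most mitochondrial RNA and the least meningeal and astrocyte RNA, and the part of this in the result was not tested.

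For Npy the rostral library of T6 was the highest of all 12, and those of T3 and T80 lay below all 3 control rostral libraries. The fitted log2 fold change was 0.35 (SE 0.34, edgeR adjusted p = 0.678) with T6 and -0.19 (SE 0.067, adjusted p = 0.138) without it. Vip had the same order, with T6 highest at 7.12 CPM and T3 and T80 at 4.51 and 3.48 CPM, below the control rostral range. Excitatory neuron markers were highest in the same library, at 2262 CPM summed against 1053 to 1415 CPM in the other libraries, and astrocyte markers were lowest there. Whether this bears on Npy and Vip was not tested.

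Crh, the corticotropin-releasing hormone gene, was the least abundant per length. It was at 1.41, 1.77 and 1.79 CPM in control and 0.68, 1.08 and 1.33 CPM in cKO rostral libraries. All 3 cKO values were below all 3 controls, with a log2 fold change of -0.68 (SE 0.29, edgeR adjusted p = 0.524). In caudal libraries Crh was at 1.5, 1.27 and 1.37 CPM in control and at 0.88, 1.30 and 1.10 CPM in cKO animals. T6 lay within the control range there, and the log2 fold change was -0.32 (SE 0.20, edgeR adjusted p = 0.489). Rostral Pdyn was at 4.17, 3.55 and 5.69 CPM in T3, T6 and T80, and T80 lay within the control range of 5.12 to 10.6 CPM. It had a log2 fold change of -0.79 (SE 0.30, edgeR adjusted p = 0.502).

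In caudal cortex the edgeR test called none of the 10, against 0.0821% of all 20705 genes, and 1 (Pdyn) had an unadjusted p under 0.05, against 14.5% of all genes. DESeq2 called 1, also Pdyn, against 2.47% of all genes. Pdyn was the single neuropeptide without overlap, against 22.6% of all genes. It was at 12.9, 8.31 and 8.83 CPM in the control caudal libraries of T4, T8 and T70 and at 5.06, 4.22 and 5.71 CPM in those of T3, T6 and T80. The highest cKO value was well below the lowest control value. The log2 fold change was -1.0 (SE 0.19, edgeR adjusted p = 0.124), and it passed in DESeq2 (-1.01, adjusted p = 0.000129) and without the filter on low counts (-1.01, adjusted p = 0.00198), where 0.839% of all genes were called.

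For the interneuron peptides the caudal genotype differences were small. The log2 fold changes were -0.01 (SE 0.24) for Sst, 0.26 (SE 0.31) for Cort, 0.19 (SE 0.12) for Npy and 0.07 (SE 0.16) for Vip, with edgeR adjusted p from 0.498 to 0.988. Cck (0.14, SE 0.11) and Grp (0.06, SE 0.13) lay in the same range. T6 again had the highest Sst and Cort of the 6 caudal libraries. That caudal library of T6 also had 254.6 CPM on 10 immediate early genes, against 82.2 to 101.2 CPM in the other caudal libraries, and the part of this in its neuropeptide levels was not tested.

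On the sum of both libraries of each animal, none of the 10 passed the edgeR test, against 0.179% of all 22924 genes, and 2 (Pdyn and Crh) had an unadjusted p under 0.05, against 15.4% of all genes. DESeq2 called 1, Pdyn, against 3.53% of all genes. These 2 were also the neuropeptides whose animals did not overlap, against 24.3% of all genes. Pdyn was at 9.11 ± 2.77 CPM (SD, n = 3) in control and 4.67 ± 1.13 CPM in cKO animals, a log2 fold change of -0.94 (SE 0.23, edgeR adjusted p = 0.183), which passed in DESeq2 (-0.95, adjusted p = 0.00244). Crh was at 1.54 ± 0.061 CPM in control and 1.03 ± 0.23 CPM in cKO animals, a log2 fold change of -0.54 (SE 0.21, edgeR adjusted p = 0.293). The median over the 10 was -0.08, against 0.02 over all genes.

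**Figure D3:**
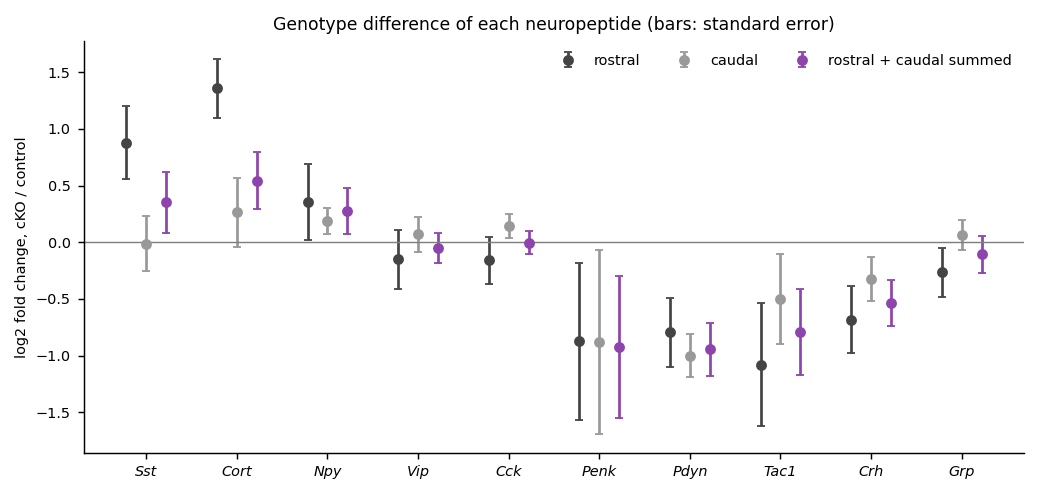
Log2 fold change of cKO over control for each neuropeptide in rostral cortex (black), caudal cortex (grey) and on the summed libraries (purple), with bars of 1 standard error and 3 animals per genotype. Pdyn lies between -0.79 and -1.0 in all 3, Cort is at 1.36 in rostral and 0.26 in caudal cortex, and the bars of Penk are the widest.

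The opioid and tachykinin precursors Penk (enkephalins), Pdyn (dynorphins) and Tac1 shared 1 feature: their highest values were in the libraries of control T4. Penk was at 23.8 and 29.3 CPM in the rostral and caudal libraries of T4, against 2.55 and 5.94 CPM in T8 and 7.96 and 5.91 CPM in T70. The cKO libraries had 4.95 to 12.3 CPM. T4 alone stood above the cKO range, and T8 rostral was the lowest of all 12.

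Tac1 was at 11.5 and 12.6 CPM in T4, 2.32 and 5.80 CPM in T8, and 7.94 and 4.77 CPM in T70, against 2.27 to 6.54 CPM in the cKO libraries. The rostral log2 fold changes were -0.87 (SE 0.69) for Penk and -1.08 (SE 0.54) for Tac1, with edgeR adjusted p of 0.634 and 0.548. Without T4 they were 0.25 (SE 0.47) and -0.58 (SE 0.54), and in caudal cortex they were 0.33 (SE 0.44) and 0.04 (SE 0.24), in place of -0.88 (SE 0.81) and -0.50 (SE 0.39). Pdyn was still lower in cKO without T4, by -0.51 (SE 0.29) in rostral and -0.78 (SE 0.16) in caudal cortex.

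Markers of striatal projection neurons were also highest in control T4. The list held 13 genes, among them the dopamine receptor genes Drd1 and Drd2, and all 13 were detected in each library. Their summed level was 228.9 to 494.3 CPM in control rostral, 191.3 to 327.3 in control caudal, 190.3 to 217.7 in cKO rostral and 180.7 to 259.5 CPM in cKO caudal libraries. It was highest in rostral T4 (494.3 CPM), followed by rostral T70 (370.4 CPM) and caudal T4 (327.3 CPM). Isl1 and Six3, the lowest of the list, ran from 0.06 to 4.01 and from 0.09 to 4.89 CPM. On summed counts 13 of 13 were lower in cKO, with a median log2 fold change of -0.69. EdgeR called none of them and DESeq2 called 1, Drd1, and 6 had an unadjusted p under 0.05 in edgeR. In rostral cortex their median was -0.97, with none called by edgeR, 8 at an unadjusted p under 0.05 and 4 called by DESeq2 (Adora2a, Drd1, Isl1 and Ppp1r1b). In caudal cortex the median was -0.42, with 0 called by either tool and 1 at an unadjusted p under 0.05. The neuropeptides did not follow the list in every library. Caudal T8 and T70 of the controls had striatal sums of 191.3 and 196.3 CPM, within the cKO caudal range, and Pdyn of 8.31 and 8.83 CPM, above all cKO libraries. Caudal T6 had the lowest striatal sum of all 12 libraries, 180.7 CPM, and at 12.3 CPM the highest Penk outside T4. Beyond these values, the part of striatal RNA in the levels of Penk, Tac1 and Pdyn was not tested.

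**Figure D4:**
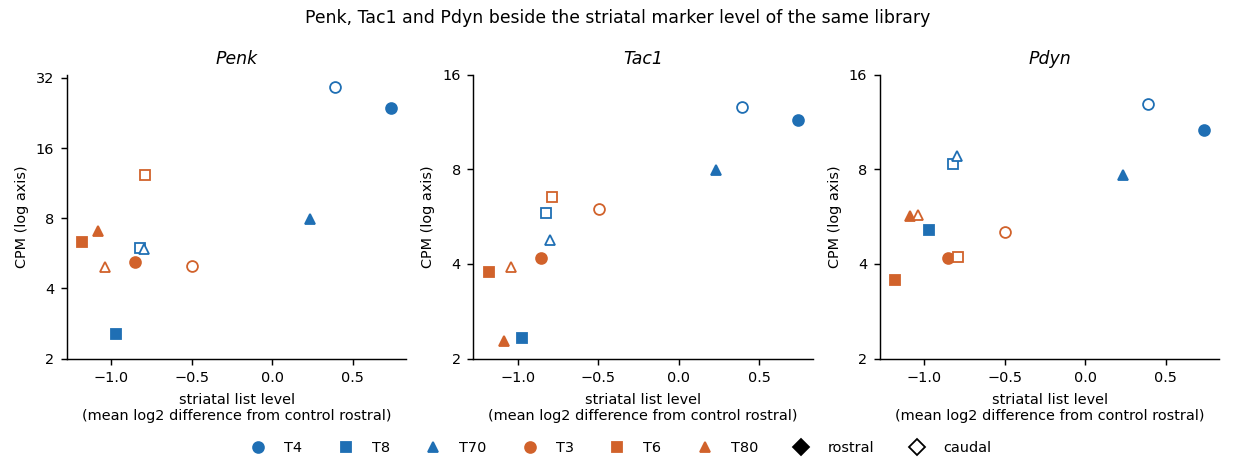
CPM of Penk, Tac1 and Pdyn (log axes) against the level of 13 striatal marker genes in the same library, given as the mean log2 difference from the control rostral mean. Points are the 12 libraries, filled for rostral and open for caudal, blue for control and orange for cKO, with shapes for animals. The libraries of T4 are at the upper right, at list levels of 0.74 and 0.39, and the cKO libraries lie between -1.18 and -0.50.

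Penk also has an uncertain part in its count. It shares 233 bases of exon, 14.3% of its exonic length, with A830012C17Rik on the opposite strand, and the strand setting of the counting is not known. That gene had 0 to 12 counts per library.

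For each neuropeptide the genes with the most similar profile over the 12 libraries were found by the root mean square log2 difference between profiles centred on their own means, among 16029 genes with a mean of 1 CPM or more. Nearest to Sst was Scg2 (0.18), a granin of dense-core vesicles, where a flat profile would differ by 0.47. Nearest to Cort was Dgkg (0.27, flat 0.75), and nearest to Npy was Tbr1 (0.091, flat 0.37), a transcription factor of deep-layer pyramidal neurons. The nearest gene to Penk was Drd2 (0.48, flat 0.95), followed by Tac1 (0.54), and Drd2 was also second for Tac1 (0.42, flat 0.74). Pdyn was nearest to Synpr (0.27, flat 0.55), Vip to Opcml (0.11, flat 0.27), Crh to Olig2 (0.23, flat 0.37), Grp to Ldb2 (0.17, flat 0.30) and Cck to Kcnk1 (0.15, flat 0.25). These distances describe 12 libraries from 6 animals. Npy was at 64.6 CPM in the rostral library of T6, against 23.7 to 32.5 CPM in the other libraries. Distances without that library were not computed.

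The receptors of these peptides differed between the control regions in both directions. Of 23 receptor genes 20 were tested and 7 passed, 3 higher caudally and 4 lower, with a median log2 fold change of -0.10. The share of all genes that passed this comparison, 12.2%, stands beside this count and those of the lists below. Npy2r, a neuropeptide Y receptor that acts on nerve endings, was at 1.64 ± 0.45 CPM in rostral and 9.99 ± 0.21 CPM in caudal control tissue (SD, n = 3). Its log2 fold change was 2.61 (SE 0.17, edgeR adjusted p = 1.47e-05), while Npy itself was lower caudally and Npy1r (0.11, SE 0.066) and Npy5r (0.24, SE 0.15) did not pass.

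Tacr3, the receptor for neurokinin B, rose by 1.35 (SE 0.13) and Cckbr, the main cholecystokinin receptor of the brain, by 0.93 (SE 0.13) on the log2 scale. Lower caudally were Tacr1, the substance P receptor (-1.25, SE 0.16), Vipr1 (-0.73, SE 0.18) and the somatostatin receptors Sstr3 (-0.86, SE 0.096) and Sstr4 (-0.55, SE 0.10). Their edgeR adjusted p ran from 0.000106 to 0.0213. Sstr3 fell from 13.4 ± 0.68 to 7.37 ± 0.86 CPM in the region where Sst was higher. Sstr1 (-0.13, SE 0.066), Sstr2 (-0.11, SE 0.10) and Sstr5 (-0.22, SE 0.61), the opioid receptors Oprd1, Oprk1 and Oprm1, the corticotropin-releasing hormone receptors Crhr1 and Crhr2, and Grpr did not pass.

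**Figure D5:**
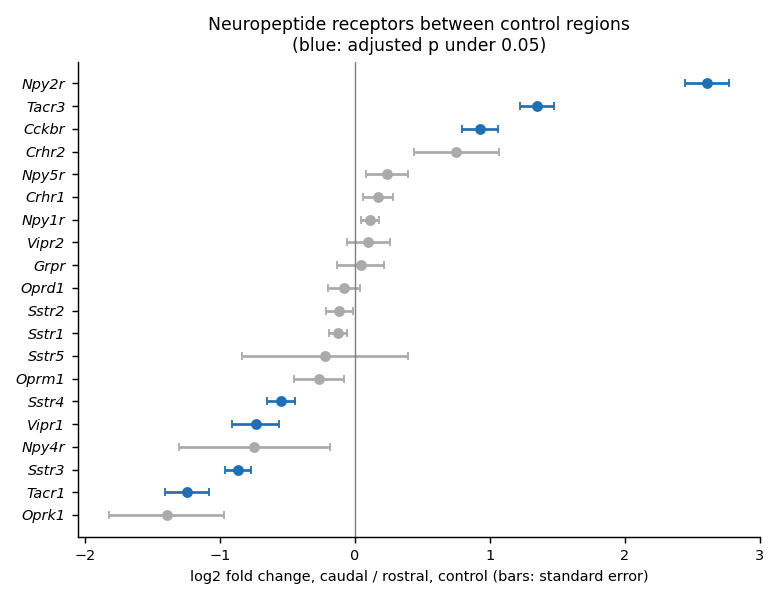
Log2 fold change, caudal over rostral, of the 20 tested neuropeptide receptor genes in control tissue, with bars of 1 standard error over 3 animals per region. Blue marks the 7 with an adjusted p under 0.05, from Npy2r at 2.61 to Tacr1 at -1.25.

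Genes that cut, pack and remove the peptides also differed between the control regions. Of 15 processing and packaging genes 4 passed. Pam, the amidating enzyme (0.54, SE 0.060), the convertase Pcsk1 (0.80, SE 0.12) and the carboxypeptidase Cpe (0.27, SE 0.066) were higher caudally, and the convertase Pcsk2 was lower (-0.33, SE 0.053). Their edgeR adjusted p ran from 0.000316 to 0.0251. Of 11 genes for breakdown and binding 4 passed: Ace (1.19, SE 0.20) and Crhbp, whose product binds corticotropin-releasing hormone (0.70, SE 0.15), were higher caudally, and Mme (neprilysin; -0.70, SE 0.10) and Prep (-0.17, SE 0.046) lower.

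Among 22 other neuropeptide precursors 13 were tested and 8 passed, 6 higher caudally and 2 lower. Nts (neurotensin) was at 6.71 ± 1.55 CPM in rostral and 38.2 ± 3.19 CPM in caudal control tissue, a log2 fold change of 2.50 (SE 0.15, edgeR adjusted p = 9.13e-05). Pnoc (prepronociceptin; 1.45, SE 0.15) and Gal (galanin; 1.85, SE 0.32) were higher caudally and Trh (thyrotropin-releasing hormone; -1.13, SE 0.17) lower. The median of the 13 was 0.75.

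Interneuron markers were counted in the same comparison. Of 9 tested markers of interneurons from the medial eminence 2 passed: Chodl, which marks a rare long-range class of Sst cells (2.50, SE 0.20), and Lhx6 (0.24, SE 0.050), both higher caudally. Of 10 markers of interneurons from the caudal eminence 5 passed, and by direction alone 6 were higher caudally and 4 lower. The 4 that passed as higher were led by Nr2f2 (2.13, SE 0.14), Calb2 (1.82, SE 0.12) and Prox1 (1.41, SE 0.17). The 1 that passed as lower was Sp8 (-1.12, SE 0.23, named after its value was seen). Among general markers of inhibitory neurons Dlx1 (-0.42, SE 0.068) and Dlx2 (-0.57, SE 0.094) passed and were lower caudally. The hippocampal gene Fibcd1 was higher caudally (2.64, SE 0.086). The part of hippocampal and other regional tissue in the differences of the neuropeptides and of these markers was not tested. Between the control regions 3 of 13 striatal, 2 of 7 hippocampal, 4 of 6 excitatory, 0 of 4 olfactory bulb, 2 of 10 immediate early, 3 of 6 choroid plexus, 0 of 7 meningeal, 3 of 7 astrocyte, 0 of 6 microglial and 15 of 31 mitochondrial genes passed. At an unadjusted p under 0.05 the lists with 0 had 0 olfactory bulb, 3 meningeal and 2 microglial genes, against 25.8% of all genes. DESeq2 called 0, 2 (Aldh1a2 and Dcn) and 0 of them, against 13.8% of all genes.

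By genotype no gene of the receptor, processing, breakdown or other precursor lists passed the edgeR test in either region. In rostral cortex 16 of their 59 tested genes had an unadjusted p under 0.05, against 9.49% of all genes, and DESeq2 called 4 (Crhbp, Cckbr, Sstr1 and Trh), against 1.67%. In caudal cortex these were 9, against 14.5% of all genes, and 3 (Crhbp, Sstr1 and Pcsk1n), against 2.47%. The smallest rostral p was that of Crhbp, at 2.79 ± 0.39 CPM in control and 6.86 ± 1.73 CPM in cKO rostral tissue (log2 fold change 1.30, SE 0.22, edgeR adjusted p = 0.273). In caudal cortex Crhbp was at 4.50 ± 0.68 and 8.97 ± 3.26 CPM (1.0, SE 0.27, adjusted p = 0.215), so that its mean was higher in cKO where that of Crh was lower. Cckbr (1.19, SE 0.25) and Npy2r (1.41, SE 0.51) were higher in cKO rostral tissue and Sstr1 was lower (-0.60, SE 0.12), each with an adjusted p of 0.312 or more. Sstr1 was also lower in cKO caudal tissue (-0.44, SE 0.082, edgeR adjusted p = 0.111).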

How the data were processed

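The submitters' processing notes name STAR 2.7.8a, featureCounts 2.0.3 and build GRCm39. The annotation, the use of strand and the treatment of multiply aligned reads are among the steps not given in the sources used here. Values deposited by the authors are expected counts per gene. In each library 9.69% to 14.3% of them were fractional, although whole counts had been planned for, so they were rounded and the planned tests kept. Values of near-identical copies and overlapping genes are uncertain.

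Each comparison used only its own libraries, in edgeR 4.0.16 (R 4.3.3) with filterByExpr, TMM scaling and robust quasi-likelihood F tests. P-values were adjusted by Benjamini-Hochberg over all genes tested, at 0.05. A standard error is the log2 fold change over the square root of F. CPM of libraries used TMM factors over all 12 libraries, and CPM of the summed counts of the 6 animals used the total count alone. The fits were also run on simulated counts, drawn independently with the same dispersion for every gene and no animal effect or outlying library. This checks the code and not how the tests behave on these data. Alternatives were DESeq2 1.42.0, RLE scaling, other filters, no rounding, sex, 1 joint fit, the animal as a block, and each animal left out. A shared T number in the sample titles was taken to mark 1 animal. Deviations of its 2 libraries from their group means correlated across genes at r = 0.269 (T4), 0.247 (T8), 0.333 (T70), 0.0307 (T3), -0.00278 (T6) and 0.461 (T80). Litters are not stated. P-values by genotype on the libraries of 1 region or on summed counts measure the spread between these animals. Region fits without a block, the interaction without a block and the joint fit count both libraries of an animal as independent. With the animal as a block, p-values measure the spread of the differences within animals.

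The 10 genes and 17 lists of pathway and marker genes were chosen with earlier results of these data known. All 10 are named in each comparison, with up to 4 genes of smallest p per list, receptors of the 10 peptides, and up to 3 nearest profiles for each.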

Additional observations from a re-analysis of the deposited data

How the results depend on the processing

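With 3 animals per group, single animals set many values. Of the 10 neuropeptides DESeq2 called 1 by genotype in rostral cortex, 1 in caudal cortex, 1 on summed counts and 4 between control regions, where edgeR called 0, 0, 0 and 2. Of all genes, DESeq2 called 1.67%, 2.47%, 3.53% and 13.8% in that order, and edgeR 0%, 0.0821%, 0.179% and 12.2%. Without a filter on low counts 1 was called in caudal cortex, against 0.839% of all genes. Between control regions the animal as a replicate block gave 5, against 15.4% of all genes, and 1 fit over all 12 libraries gave 0, against 78 of 21599 genes. The block changed no other count of neuropeptides. Leaving out single animals gave 0 to 1 in rostral cortex and in the interaction (1 without T6), and 1 (without T8) to 4 (without T4) between control regions. The fits without T6 called 5.01% of all genes in rostral cortex and 2.17% in the interaction. Between control regions 1079 of 20571 genes were called without T8 and 1690 of 20582 without T4. Over the alternatives, all genes called ran from 0 to 1058 in rostral cortex, 0 to 468 in caudal cortex, 1 to 754 on summed counts, 78 to 3514 between control regions, 0 to 2 between cKO regions and 0 to 475 in the interaction. The cause was not tested.

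Of 700 values of single neuropeptides under an alternative, 648 kept direction and call, 14 gained a call, 3 lost one and 35 changed sign, none of them a called value. With sex in the model caudal Grp was -0.0186 and summed Cck 0.0216, with the 1 CPM filter summed Cck was 0.0081, and DESeq2 gave 0.0012 for the interaction of Penk. The other changes of sign came from leaving out 1 animal, for which the lowest and highest log2 fold changes follow. In rostral cortex Npy ran from -0.19 (without T6) to 0.57, Vip from -0.48 to 0.0503 (without T80), Cck from -0.34 to 0.0065 (without T80) and Penk from -1.34 to 0.25 (without T4). In caudal cortex Sst ran from -0.33 to 0.15, Cort from -0.22 (without T6) to 0.45, Vip from -0.079 to 0.18, Penk from -1.47 to 0.33 (without T4), Tac1 from -0.76 to 0.045 (without T4) and Grp from -0.041 to 0.15. On summed counts Sst ran from -0.039 (without T6) to 0.54, Npy from -0.031 (without T6) to 0.44, Vip from -0.15 to 0.061, Cck from -0.068 to 0.11 and Penk from -1.33 to 0.27 (without T4). Between control regions Cck ran from -0.0797 to 0.20 and Tac1 from -0.15 to 0.44, and between cKO regions Npy from -0.82 to 0.062, Vip from -0.32 to 0.36, Penk from -0.30 to 0.59 and Crh from -0.0007 to 0.32. In the interaction Npy ran from -0.50 to 0.39 and Penk from -0.57 to 0.32. Dividing by length moved 6 of the 10 in the order of control rostral levels: by CPM alone the order was led by Cck, then Sst, then Npy. Crh, at 0.68 to 1.79 CPM, and control rostral Cort, at 1.28 to 1.71 CPM, are the least deeply counted. The fewest counts of Crh were 40, in the caudal library of T3.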

Other observations

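Chodl, the marker of long-range Sst neurons, was at 1.44 ± 0.41 CPM in rostral and 8.06 ± 1.22 CPM in caudal tissue of controls (SD, n = 3). In cKO tissue its mean was similar in both regions, at 4.42 ± 2.92 CPM in rostral and 4.06 ± 0.80 CPM in caudal tissue. The 3 cKO caudal libraries (3.14 to 4.6 CPM) lay below the 3 control caudal ones (7.07 to 9.41 CPM), with a log2 fold change of -0.98 (SE 0.18, edgeR adjusted p = 0.105). In rostral tissue T3 and T80 were at 5.94 and 6.27 CPM and T6 at 1.06 CPM, and the log2 fold change was 1.63 (SE 0.63, edgeR adjusted p = 0.504). T6 was thus the cKO rostral library with the highest Sst and the lowest Chodl.

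Nts had a wide spread among the cKO rostral libraries, at 25.2 CPM in T3, 2.23 CPM in T6 and 3.16 CPM in T80, against 5.25 to 8.34 CPM in control rostral tissue. Npy2r had the same highest library, at 7.89 CPM in T3 against 2.19 CPM in T6 and 2.92 CPM in T80. T3 was also the cKO rostral library with the highest region score and the most choroid plexus RNA.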
